A study of Homo sapiens with 4 samples.

Results

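The clustered protocadherin genes on chromosome 5 were examined in Hi-C data from MDA-MB-231 cells, a triple-negative breast cancer (TNBC) line labelled wild type in genotype. Members were the protein-coding genes whose symbols start with PCDHA, PCDHB or PCDHG, 53 of the 71 protein-coding genes in a window from 140.0 to 141.1 Mb of chromosome 5 (GRCh37). The chromatin loops were those with an anchor in this window, 81 of 77275 loop calls over the libraries, and the contact domains were those overlapping it, 8 of 7418 domain calls. Cells received DMSO as vehicle or 75 nM THZ1, an inhibitor of the kinase CDK7, for 48 h, with 2 Arima-HiC libraries per condition. The labels call the replicates technical, so the spread between these libraries, and the p-values, may not include variation between cultures. Hi-C ligates DNA ends that lie near each other in the nucleus, and a loop is a pair of anchors that meet more often than their surroundings. HiCCUPS, the loop caller, gave for each loop the observed count of contacts and the count expected from neighborhoods around it. The donut, a ring around the loop's pixel in the contact map, was the neighborhood used here.

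Each clustered protocadherin is a cell surface adhesion protein, and in neurons each cell expresses its own choice of them, which gives the cell an identity on its surface. In the alpha and gamma clusters, every first exon has its own promoter and is spliced to constant exons shared by the cluster, whereas beta genes have a single coding exon. The promoters are known to be reached by distant enhancers through loops held by the DNA-binding protein CTCF and by cohesin, and such loops form mostly between CTCF motifs that point toward each other. An enhancer named for a hypersensitive site lies downstream of the last alpha promoter, and enhancers of the beta and gamma genes lie downstream of the gamma cluster. The Hi-C lists do not measure expression, so whether any of these genes was transcribed in MDA-MB-231 cells was not tested.

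The 3 clusters run in the order alpha, beta, gamma, and all 53 genes are on the plus strand. The 15 alpha genes, from PCDHA1 to PCDHAC2, span chr5:140165721-140391932. The 16 beta genes, from PCDHB1 to PCDHB15, span chr5:140430959-140628933, after an interval of 39.0 kb without any member. The 22 gamma genes, from PCDHGA1 to PCDHGC5, span chr5:140710081-140892544, after an interval of 81.1 kb that holds TAF7, a subunit of the transcription factor TFIID. The 5 C-type genes are PCDHAC1 and PCDHAC2 at the end of alpha and PCDHGC3, PCDHGC4 and PCDHGC5 at the end of gamma.

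The reference sequence was searched on both strands for exact matches to a 14-letter CTCF core motif. The window held 11 matches, or 10.0 per Mb, against 1.28 per Mb over chromosome 5. Inside the alpha cluster there were 4 matches, each on the plus strand in the first coding exon of a different gene (PCDHA4, PCDHA7, PCDHA9 and PCDHA13). The alpha to beta interval held 1 match on the minus strand, and of the 5 kb anchors of cluster loops in DIAPH1, the formin gene just downstream of gamma, those at 140900001 and 140940001 held 1 match each on the minus strand, while the one at 140935001 held none. The motif is thus on opposite strands at both ends of the alpha loop described below. These 7 windows of 60 bases are shown because they are the alpha matches and the matches in 5 kb anchors of loops that touch the clusters. Each is the plus strand of GRCh37 from 5′ to 3′, with the motif in capitals.
PCDHA4 exon, chr5:140187206-140187265, motif on plus: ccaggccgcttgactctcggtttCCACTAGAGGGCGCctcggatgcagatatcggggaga
PCDHA7 exon, chr5:140214402-140214461, motif on plus: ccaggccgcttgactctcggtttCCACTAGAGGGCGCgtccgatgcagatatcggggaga
PCDHA9 exon, chr5:140228514-140228573, motif on plus: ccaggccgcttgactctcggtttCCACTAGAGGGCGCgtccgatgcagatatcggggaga
PCDHA13 exon, chr5:140262287-140262346, motif on plus: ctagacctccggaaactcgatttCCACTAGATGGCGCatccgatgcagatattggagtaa
Alpha to beta interval, chr5:140420932-140420991, motif on minus: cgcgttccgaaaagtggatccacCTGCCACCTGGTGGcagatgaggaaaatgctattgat
DIAPH1 intron, chr5:140904436-140904495, motif on minus: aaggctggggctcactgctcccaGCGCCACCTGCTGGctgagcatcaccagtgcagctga
DIAPH1 intron, chr5:140943937-140943996, motif on minus: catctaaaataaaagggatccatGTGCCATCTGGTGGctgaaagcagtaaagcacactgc

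The windows of PCDHA4, PCDHA7 and PCDHA9 are close copies of each other, and that of PCDHA13 differs more. With positions counted from 1 at the 5′ end of the motif, the core of PCDHA13 differs from that of PCDHA4 by G9T, and the cores of PCDHA7 and PCDHA9 do not differ from it. Over the whole window, PCDHA7 and PCDHA9 each differ from PCDHA4 at 2 bases and PCDHA13 differs at 15. Of these genes, only PCDHA13 had its start in a loop anchor in all 4 libraries, and PCDHA9 had its start in none. Among the 14 distinct 5 kb anchors of loops that touch the clusters, 5 (35.7%) held a match, against 95 of 1752 (5.42%) distinct 5 kb loop anchors and 0.636% of all 5 kb bins on chromosome 5. The matches lay in the anchors of PCDHA7, PCDHA13, the alpha to beta interval and the DIAPH1 bins at 140900001 and 140940001. The anchors at PCDHB13 and PCDHGB2 held none, which says only that these letters are not in those 5 kb. The beta cluster as a whole held no match, and the gamma cluster held 1, on the minus strand in the 3′ untranslated region that its genes share.

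The promoters themselves were read from RefSeq (GRCh38.p14), as 250 bases before to 50 bases after each start. Of the 53 genes, 47 matched, with 52 promoters. PCDHA13 was not among them, so its promoter was not searched. None of the 52 held an exact match to the CTCF core, which was in 0.339% of 35116 promoters. This says only that these letters are not in those stretches, and CTCF binding was not measured. The letters CGCT, the core of a sequence element known from protocadherin promoters, were searched on both strands, where the reverse complement is AGCG. They were present in 51 of 52 member promoters (98.1%), against 70.0% of all promoters. The median number of matches per promoter was 2.0 in both sets, with 1.0 in alpha, 1.0 in beta and 3.0 in gamma. The 120 bases before the start of PCDHB13 are shown because that gene's start lies in both loops that left the beta cluster in all 4 libraries. They hold 1 CGCT, in capitals, on the plus strand.
PCDHB13 promoter, chr5:140593371-140593490 on GRCh37: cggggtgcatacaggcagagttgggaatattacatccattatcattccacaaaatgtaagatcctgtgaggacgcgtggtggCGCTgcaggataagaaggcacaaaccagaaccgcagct

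In the window, HiCCUPS called 22 loops in either vehicle library, another 22 in the first THZ1 library and 15 in THZ1 replicate 2. The means were 22.0 with vehicle, where both libraries gave the same number, and 18.5 ± 4.95 (SD, n = 2) with THZ1, and the groups overlapped (exact two-sided permutation test, p = 1.0). With 2 libraries against 2, this test cannot give a p below 0.3333. Loops with an anchor within the span of the member genes numbered 10 and 10 for vehicle against 9 and 6 for THZ1, which did not overlap (exact permutation p = 0.3333), with means of 10.0 and 7.5 ± 2.12 (SD, n = 2). As a share of all loops of the library, these were 0.0482% and 0.0413% for vehicle against 0.0523% and 0.0398% for THZ1, which overlapped. The libraries as a whole held 20768, 24219, 17222 and 15066 loops in the same order, and the window's share of them averaged 0.0984% ± 0.0107 (SD, n = 2) for the vehicle libraries against 0.114% ± 0.0199 (SD, n = 2) for the THZ1 libraries (exact permutation p = 0.667). The lists hold no read totals. The median observed count over all loops of a library, a value that depends on which loops were called, was 25, 26, 30 and 30.

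The sizes of the window's loops overlapped between conditions. The median was 170 and 162.5 kb in the vehicle libraries against 162.5 and 160 kb in the THZ1 libraries (exact permutation p = 0.667). Loops of at most 90 kb numbered 5 of 22 in each of the first 3 libraries and 4 of 15 in THZ1 replicate 2. The smallest calls measured 35 kb, among them the one within DIAPH1 that every library had. The largest measured 850 kb, from CYSTM1 upstream to the alpha to beta interval, and was called in vehicle replicate 2 only.

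**Figure D1:**
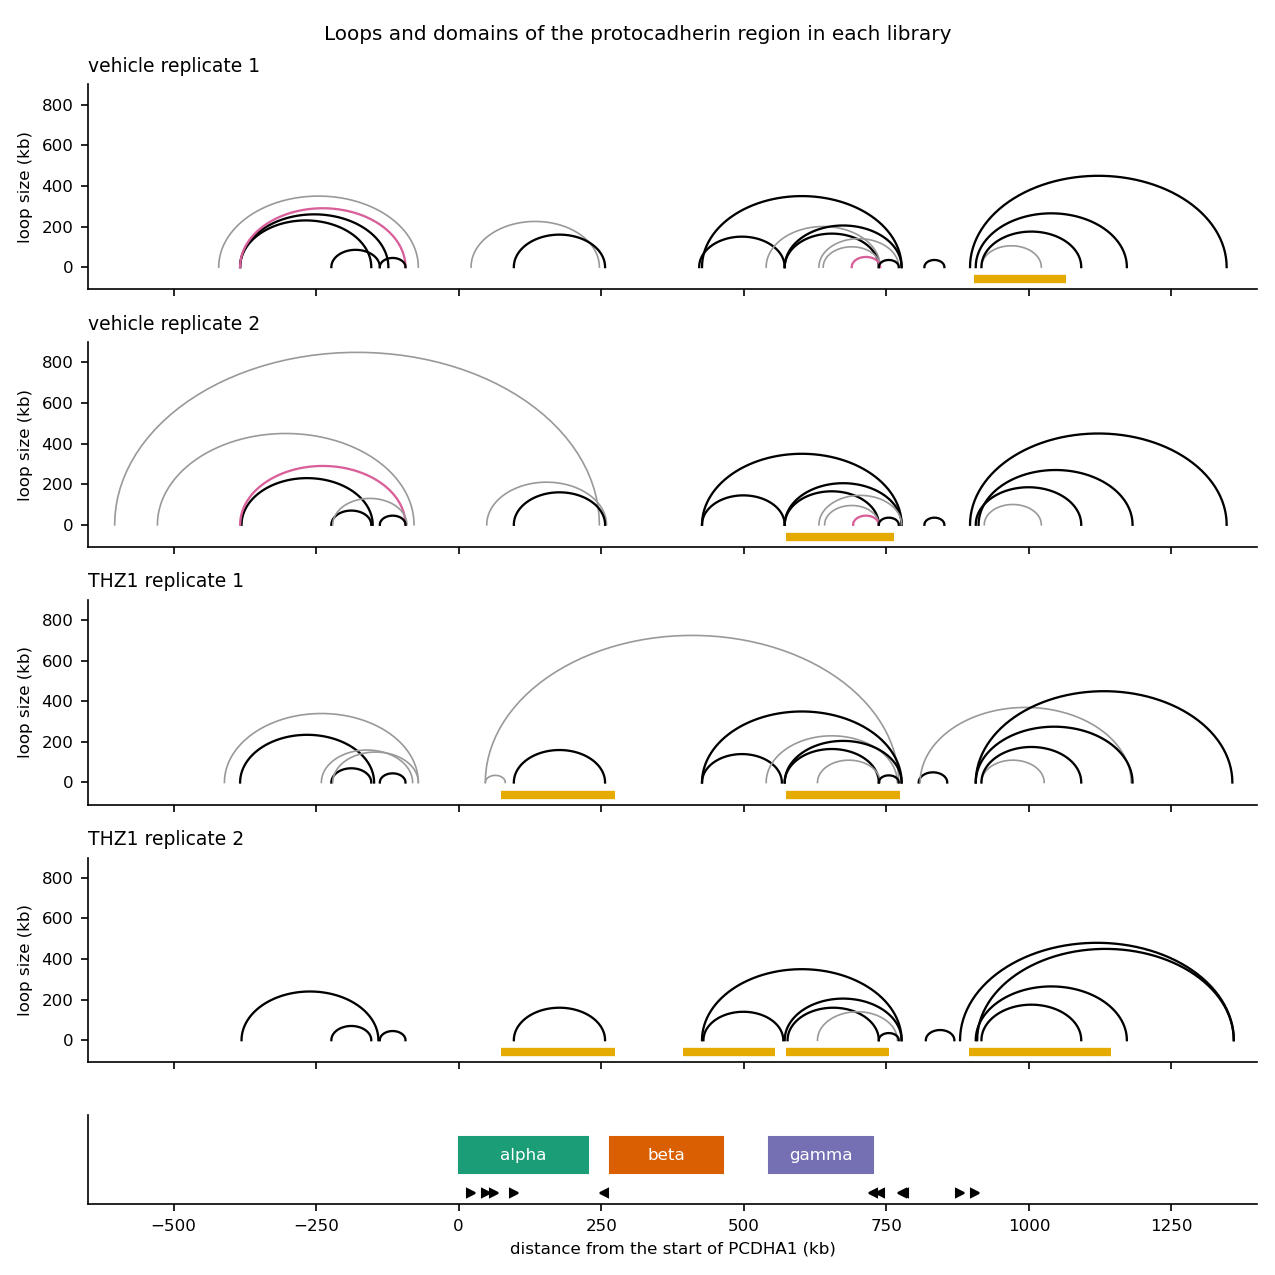
Loops (arcs, whose height is the loop size in kb) and contact domains (yellow bars) of the window in each library, against the distance from the start of PCDHA1 in kb. Black arcs were matched in all 4 libraries, pink arcs in both vehicle libraries and neither THZ1 library, and grey arcs in other combinations. The lowest panel gives the spans of the alpha, beta and gamma clusters and the CTCF core matches, with arrowheads for their strand. The same black arcs from alpha, beta and gamma recur in each library, and the yellow bar over the end of alpha is seen in both THZ1 libraries only.

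When calls with both anchor midpoints within 20 kb were taken as the same loop, the 81 calls came from 29 distinct loops. All 4 libraries called 13 of the 29 (44.8%), against a background of 26.1% of 33552 distinct loops over the genome. Of the 15 distinct loops that touched the gene clusters or the intervals between them, 5 were called in all 4 libraries, 2 in 3 libraries, 1 in 2 libraries and 7 in a single library. Of the 14 distinct loops of the flanks, 8 were called in all 4 libraries. Both vehicle libraries and neither THZ1 library called 2 of the 29 loops, where the background was 9.67%. Both THZ1 libraries and neither vehicle library called 0 of the 29, where the background was 2.24%. These shares are descriptions, and neither count of loops seen in a single condition can be read as a result for the window.

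By subcluster, the largest class of calls that touched the genes joined gamma to the region downstream of the array. The gamma cluster was joined to the region downstream by 5, 5, 3 and 3 loops in the 4 libraries (vehicle first, here and below). The alpha cluster was joined to the alpha to beta interval by 2, 2, 1 and 1 loops. A single loop joined beta to the region downstream in each library, and a single loop joined beta to gamma in each library. The window's remaining calls included 21 in the upstream flank and 25 in the downstream flank, which involve no member gene. A loop within alpha was seen in THZ1 replicate 1 only, between PCDHA7 and PCDHA11 over 35 kb, and no loop was called with both anchors within beta or both within gamma.

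The starts of 20 of the 53 genes lay in an anchor of at least 1 loop. They were 8 of 15 alpha genes, 3 of 16 beta genes and 9 of 22 gamma genes. At anchors of 5 kb, the finest width, the numbers were 3, 1 and 5. PCDHGB2 had the most, with 3, 3, 2 and 2 loops at its start in the 4 libraries. PCDHB13 followed with 2 loops in each library, and PCDHA13 and PCDHGB7 had 1 loop each in every library. Of the C-type genes, whose promoters are used in a way that differs from the rest, only PCDHGC3 had its start in an anchor, in 1 loop of each vehicle library. The first and last genes of each cluster (PCDHA1, PCDHAC2, PCDHB1, PCDHB15, PCDHGA1 and PCDHGC5) had none.

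**Figure D2:**
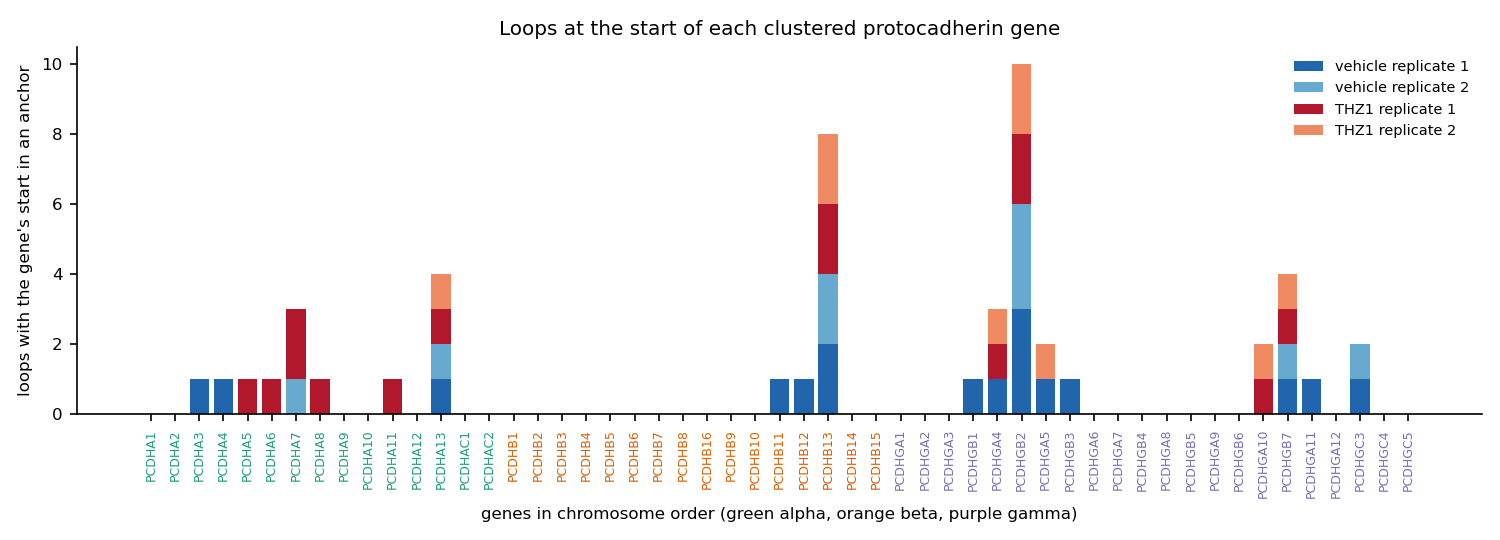
Number of loops with each member gene's start in an anchor (y axis), by gene in chromosome order (x axis), stacked by library. The bars stand highest at PCDHGB2 with 10 calls and PCDHB13 with 8, and 33 genes have no bar.

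In alpha, PCDHA13 was joined to the alpha to beta interval by the same loop in all 4 libraries, with anchors at chr5:140260001-140265000 and chr5:140420001-140425000, 160 kb apart. PCDHA13 is the last of the alternative first exons of alpha, before the C-type ones, and the far anchor lies between the end of the alpha genes and PCDHB1, in a stretch with no protein-coding gene. The observed counts were 21 and 23 with vehicle against 22 and 21 with THZ1. The donut-expected counts were 1.56 and 1.74 with vehicle against 3.52 and 3.23 with THZ1. The raw count at the loop thus stayed within the range of the vehicle libraries, while the count expected from its surroundings was higher in both THZ1 libraries, without overlap. Neither count is corrected for depth. The observed count was 13.5 and 13.2 times the expected count with vehicle and 6.25 and 6.51 times with THZ1. In the vehicle libraries this was among the strong loops, higher than 94.4% and 94.1% of the 5 kb loops of the same library, and in the THZ1 libraries it was higher than 60.4% and 63.6% of them.

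The other alpha loops were called in 1 library each. Vehicle replicate 1 had one from the 25 kb anchor with the starts of PCDHA3 and PCDHA4 to the interval, over 225 kb, at an observed count of 54 and 2.34 times the expected count. Vehicle replicate 2 had one from the 10 kb anchor at PCDHA7 to the interval, over 210 kb, at a count of 27 and 3.97 times the expected count. Both thus ended at the same interval as the PCDHA13 loop, and both started at an anchor that holds a CTCF core match, in PCDHA4 or PCDHA7. The 25 kb anchor also holds exons of PCDHA2 and PCDHA3, which have no match, so the call cannot be placed at the PCDHA4 exon. THZ1 replicate 1 had one of 725 kb, from the 25 kb anchor with PCDHA5 to PCDHA8 to the downstream side of gamma within DIAPH1, at a count of 27 and 3.33 times the expected count. This was the only call that reached from alpha across the beta and gamma clusters. Its alpha anchor also holds the PCDHA7 match, as does the PCDHA7 anchor of the loop within alpha, and neither of these loops ended at the interval.

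In beta, the recurrent anchor was chr5:140590001-140595000, at PCDHB13. It was joined to an intron of DIAPH1 at chr5:140940001-140945000, 350 kb away and across the whole gamma cluster. The observed counts were 32 and 49 with vehicle against 53 and 51 with THZ1. The donut-expected counts were 2.39 and 2.83 with vehicle against 5.31 and 4.39 with THZ1. Both counts were higher in the THZ1 libraries than in the vehicle libraries, and their ratio was lower, at 13.4 and 17.3 with vehicle against 9.98 and 11.6 with THZ1. The value in vehicle replicate 2 was the highest of all loops of the window in any library. No other beta gene had its start in an anchor of a loop to the region downstream of gamma, although the same anchor also holds part of the neighboring gene PCDHB12.

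PCDHB13 was also joined to the start of the gamma cluster in every library, over 140 to 150 kb, but the calls differed in anchor width. Vehicle replicate 1 had the loop at 25 kb, with a count of 78 and 2.63 times the expected count. Vehicle replicate 2 and THZ1 replicate 1 had it at 5 kb, each with a count of 19, at 6.18 and 3.71 times the expected count. THZ1 replicate 2 had it at 10 kb, with a count of 35 and 2.68 times the expected count. Since a wider anchor collects more contacts, these values cannot be set against each other between conditions. In the calls at 5 and 10 kb, the gamma side lay at PCDHGA4 or PCDHGB2, at or next to the recurrent gamma anchor. The 25 kb anchors of vehicle replicate 1 held these starts and that of PCDHB13 too, but do not single them out. They also held the starts of PCDHB11 and PCDHB12 on the beta side and of PCDHGB1, PCDHGA5 and PCDHGB3 on the gamma side. The beta genes are similar to each other in sequence. Of the 150-base stretches that start in the PCDHB13 anchor, 9.98% recur elsewhere in the window, against 1.51% over the beta cluster and 0.518% over the window. The share was 8.86% at the 5 kb PCDHA7 anchor and 0.260% at the PCDHA13 anchor, and no stretch recurred at the PCDHGB2 anchor. The part of such repeats in the PCDHB13 counts was not tested.

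In gamma, the recurrent anchor was chr5:140735001-140740000, which holds the start of PCDHGB2. It was joined to the same DIAPH1 intron as PCDHB13, at chr5:140940001-140945000 and 205 kb away, with observed counts of 42 and 52 with vehicle against 64 and 48 with THZ1. The observed counts of the conditions overlapped. The donut-expected counts were 3.53 and 4.80 with vehicle against 6.77 and 6.03 with THZ1, which did not overlap. The ratios were 11.9 and 10.8 with vehicle against 9.46 and 7.96 with THZ1. PCDHB13 and the stretch at PCDHGA4 and PCDHGB2 were thus joined to each other and to a common anchor in DIAPH1, by 3 separate pairwise loops in each library. The gamma bins of these loops were not always the same, and whether the 3 places meet at once was not tested.

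A second DIAPH1 anchor, chr5:140900001-140905000, lies closer to the end of gamma. It was joined to PCDHGB2 over 165 kb in 3 libraries, with counts of 40 and 53 with vehicle and 47 with THZ1 replicate 1, and to the neighboring bin with PCDHGA5 over 160 kb and a count of 35 in THZ1 replicate 2. The ratios to the expected count were 7.81 and 8.41 with vehicle against 5.67 and 5.98 with THZ1. Further into gamma, around PCDHGA10 and PCDHGB7, a loop was called to the far DIAPH1 anchor in vehicle replicate 2, at 7.25 times the expected count, and to the stretch just before that anchor in vehicle replicate 1 and THZ1 replicate 2, at 6.35 and 3.23 times. One from the neighborhood of PCDHGB7 and PCDHGA11 to the near DIAPH1 anchor was called in both vehicle libraries and THZ1 replicate 1, at 3.45, 4.45 and 2.64 times the expected count. Anchor widths differed among these calls, and each condition had at least 1 library with the loop.

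The only cluster loop called in both vehicle libraries and neither THZ1 library joined PCDHGC3 to the near DIAPH1 anchor. In vehicle replicate 1 it measured 50 kb with 10 kb anchors, a count of 43 and 2.58 times the expected count. In vehicle replicate 2 it measured 45 kb with 5 kb anchors, a count of 25 and 3.74 times the expected count. Among loops of the same library and width it was higher than only 10.1% and 21.6%, so it stood near the lower end of what was called. The lists give no count for a loop that was not called, and the strength at this place with THZ1 was not tested. The other loop of this pattern, over 290 kb between ANKHD1 and the divergent genes HARS1 and HARS2 that encode histidyl-tRNA synthetases, lies upstream of alpha and involves no member.

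**Figure D3:**
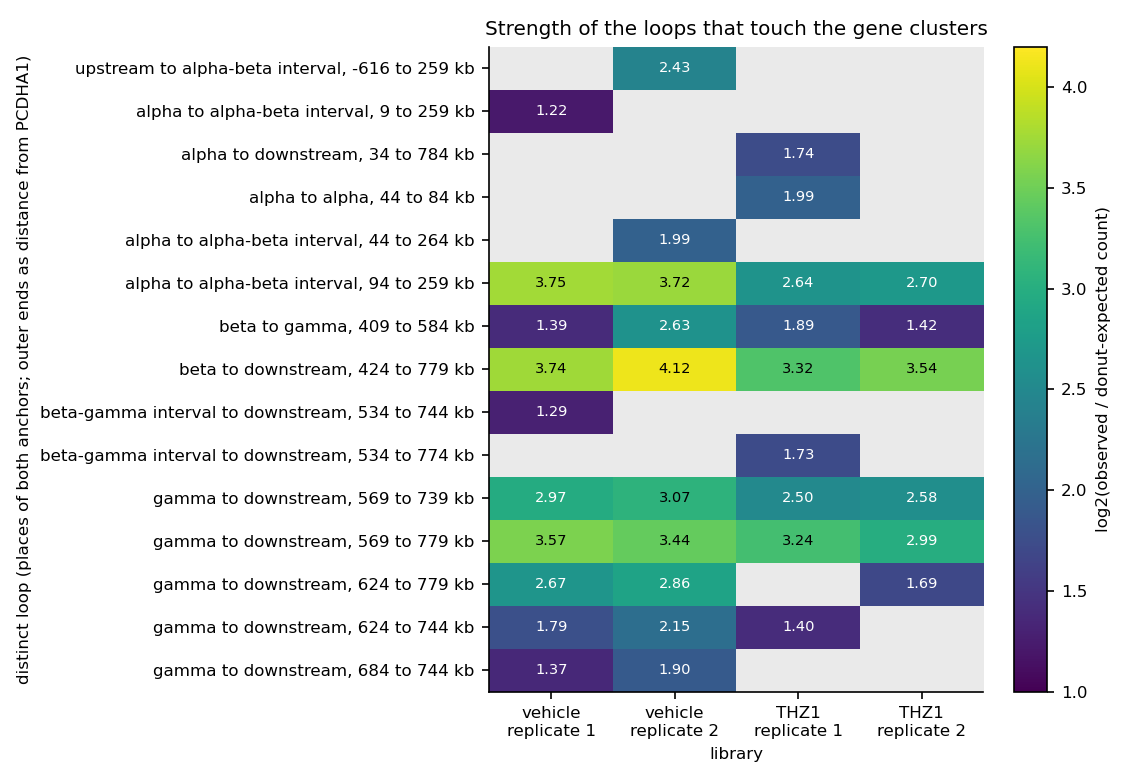
Strength, as log2 of the observed over the donut-expected count, of the 15 distinct loops that touch the gene clusters (rows, with outer ends as the distance from the start of PCDHA1 in kb) in each library (columns). Where a library had several calls the strongest is drawn, and grey cells had no call. The 5 loops present in each column include those from PCDHA13 to the interval and from PCDHB13 and PCDHGB2 to the far DIAPH1 anchor, from 2.64 to 4.12 on this scale, and the PCDHA13 loop falls from 3.75 and 3.72 with vehicle to 2.64 and 2.70 with THZ1.

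Strength was compared between conditions for loops with identical anchors in all 4 lists, which were 2619 over the genome. This leaves out 5 loops whose expected count was 0 in the donut or in the bottom-left neighborhood, another of those that HiCCUPS uses. With a bottom-left expected count of 0 allowed, 2623 loops were tested. The observed counts were tested with edgeR's quasi-likelihood test, in which the offset was the logarithm of the expected count of the donut, and p-values were adjusted over all 2619 loops by the method of Benjamini and Hochberg. Over the genome, 720 loops (27.5%) were lower with THZ1 at an adjusted p under 0.05, 1 was higher, and the median log2 change was -0.41. This split rests on the expected count in the fit: with TMM factors and no expectation, 109 loops were lower and 67 higher, and the median log2 change was -0.0060. Of the 5 such loops in the window, 2 were lower with THZ1, 3 did not pass, and the median log2 change was -0.53. For the 3 that touched the gene clusters, 1 passed. Every one of the 5 was lower in both THZ1 libraries than in both vehicle libraries, as were 68.8% of the 2619, so neither count sets the window apart. Loops called in all 4 lists were tested, so a loop that became too weak to be called with THZ1 could not enter. For the PCDHA13 loop (0.000645) and the 205 kb PCDHGB2 loop (0.0699), edgeR's unadjusted p was also that of a Poisson likelihood ratio test. For the PCDHB13 loop to DIAPH1 it was 0.0173 with edgeR against 0.0135 with the Poisson test. The Poisson test counts sampling error alone and takes the expected count as exact. Standard errors (SE) below are from the Poisson test.

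The PCDHA13 loop showed the largest change of the 5. Its observed over expected count was 13.3 ± 0.175 (SD, n = 2) for vehicle against 6.38 ± 0.182 (SD, n = 2) for THZ1, a log2 change of -1.06 (SE 0.311, edgeR adjusted p = 0.00858), which ranked 41 of 2619 from the lowest. The mean log2 observed count differed by -0.03, and the mean log2 donut-expected count was higher by 1.03, at the percentile 99.2 of the tested loops, whose median difference was 0.40. In raw counts the difference lay in the expected count, which at 1.56 to 3.52 contacts is small, and for which the lists give no error. Neither of these counts was corrected for depth, and the part of depth in their differences was not tested. The call was lost without any 1 of the 4 libraries (adjusted p from 0.0599 to 0.0997), where the log2 change stayed between -1.09 and -1.03 and 0 to 227 loops were called over the genome, and also with the horizontal neighborhood as expectation (adjusted p = 0.256), and when the observed counts were tested with TMM factors and no expectation (log2 change -0.02, adjusted p = 0.980). It held with the vertical (adjusted p = 0.0310) and bottom-left (adjusted p = 0.0175) neighborhoods.

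The PCDHB13 loop to DIAPH1 had a log2 change of -0.53 (SE 0.215, edgeR adjusted p = 0.0579), from 15.4 ± 2.79 to 10.8 ± 1.17 (SD, n = 2 each), and did not pass the threshold. On the log2 scale, its expected count was higher by 0.89 with THZ1 and its observed count by 0.39. With no expectation in the fit, the sign turned to 0.37 (adjusted p = 0.307). The PCDHGB2 loop to the same anchor had a log2 change of -0.37 (SE 0.202, edgeR adjusted p = 0.153), close to the median of all loops, and its sign turned to 0.27 without the expectation (adjusted p = 0.479). When loops were matched within 20 kb in place of identical anchors, the loop of PCDHGB2 and PCDHGA5 to the near DIAPH1 anchor could be added, with a log2 change of -0.49 (adjusted p = 0.101). Of the 3 cluster loops with identical anchors, none was thus called stronger with THZ1 by edgeR, and that of PCDHA13 was called weaker relative to its surroundings.

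**Figure D4:**
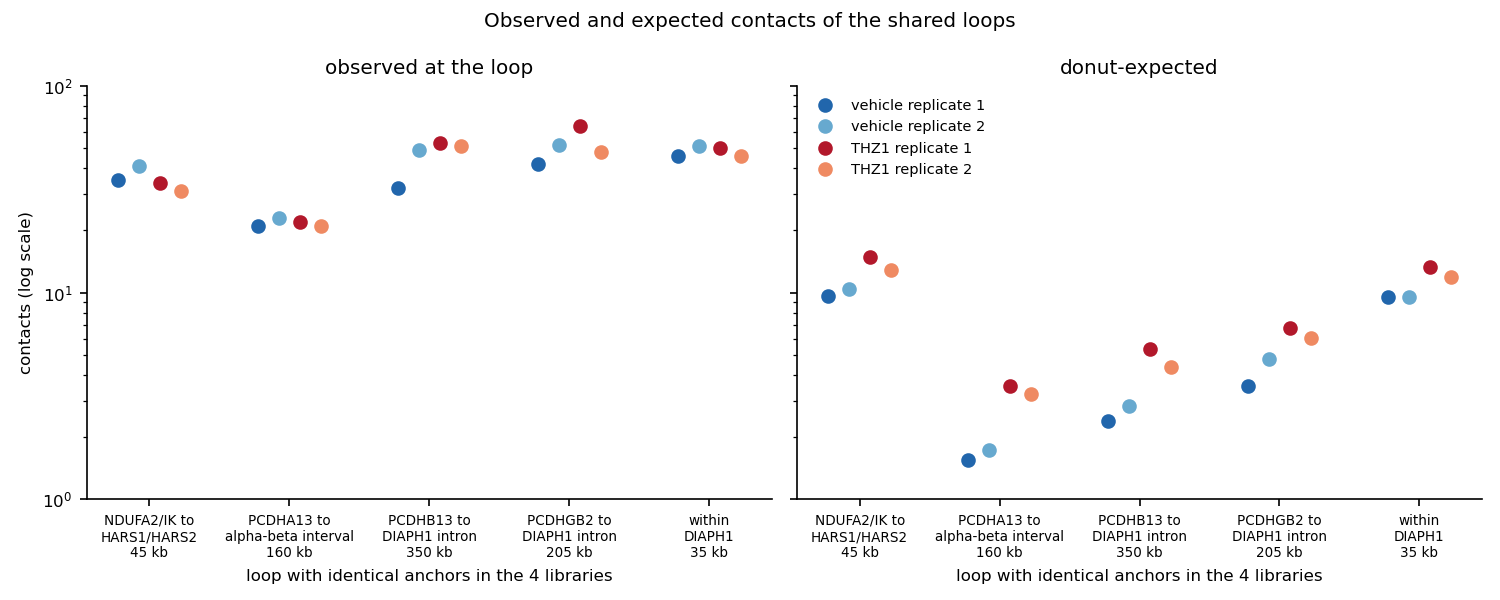
Observed contacts (left) and donut-expected contacts (right), on a log axis, of the 5 loops of the window with identical anchors in all libraries. Each point is 1 library. The expected contacts of the THZ1 libraries lie above those of the vehicle libraries at each loop, and the observed contacts of the PCDHA13 loop stay between 21 and 23.

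**Figure D5:**
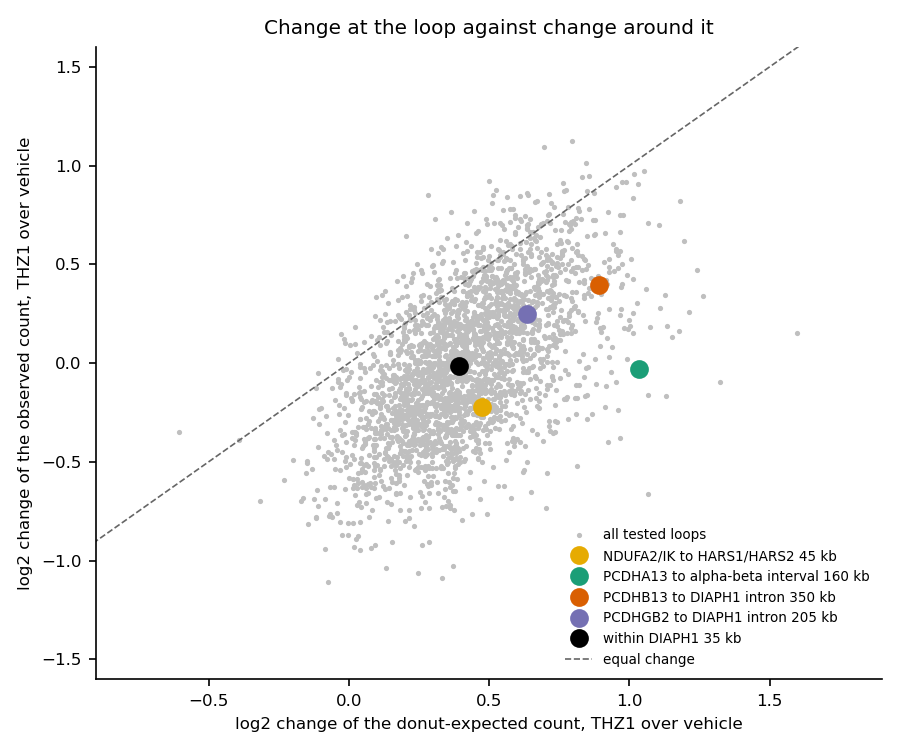
Log2 change with THZ1 of the observed count (y axis) against that of the donut-expected count (x axis) for 2619 tested loops (grey) and the 5 of the window (colored). On the dashed line, both change equally, and below it a loop is weaker relative to its surroundings. The PCDHA13 loop lies at 1.03 on the x axis and -0.03 on the y axis, and the loop within DIAPH1 lies amid the grey points.

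The loops of the flanks serve as a reference without member genes. The loop between the anchor of NDUFA2 and IK and that of HARS1 and HARS2, 45 kb and upstream of alpha, was the other one called lower with THZ1. Its observed over expected count went from 3.79 ± 0.221 to 2.34 ± 0.0868 (SD, n = 2 each), a log2 change of -0.70 (SE 0.243, edgeR adjusted p = 0.0230). This call too was lost without any 1 library, at log2 changes between -0.76 and -0.64. The loop within DIAPH1, 35 kb between a bin that starts at the near anchor and one just before the far anchor, changed by -0.41 (SE 0.207, edgeR adjusted p = 0.119). When loops were matched within 20 kb, further flank loops could be added. That from APBB3 and SLC35A4 to CD14 or IK changed by -0.03, and those downstream to PCDH1 and to RNF14 and PCDH12 by -0.24 and -0.31. None passed (edgeR adjusted p from 0.471 to 0.937). The recurrent loops downstream, from ARAP3 and the intergenic stretch beyond it to RNF14, PCDH12, PCDH1 and NDFIP1, were called in all 4 libraries at 4.87 to 9.53 times the expected count. PCDH12 and PCDH1 are protocadherins outside the clusters. The other flank loops of all 4 libraries lay at lower ratios. They ran from ANKHD1 to the stretch from CD14 to WDR55 (2.56 to 5.22 times), and from APBB3 and SLC35A4 to CD14 or IK (3.91 to 4.15). Another ran from DIAPH1 to HDAC3, RELL2 or FCHSD1, at 2.83 and 3.74 times with vehicle against 4.81 and 2.30 with THZ1. Anchor widths differed among the calls of the first and last of these.

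Arrowhead, the domain caller, found few domains here, with 1 in each vehicle library, 2 in THZ1 replicate 1 and 4 in THZ1 replicate 2. The mean was 1.0 with vehicle, where both libraries gave the same number, and 3.0 ± 1.41 (SD, n = 2) with THZ1, and the groups did not overlap (exact permutation p = 0.3333, the lowest that 4 libraries can give). The libraries held 1198 and 1398 domains with vehicle and 2477 and 2345 with THZ1, so the window followed the direction of the whole lists. Arrowhead scores how sharp a domain's corner is, and when domains under the median of this corner score were left out, the numbers were 1 and 1 with vehicle against 1 and 2 with THZ1, which overlapped.

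The only domain called in both THZ1 libraries and neither vehicle library spanned chr5:140240001-140440000, over 200 kb, with the same boundaries in both and corner scores of 1.04 and 0.899. It holds the starts of PCDHA11, PCDHA12, PCDHA13, PCDHAC1, PCDHAC2 and PCDHB1 and encloses the whole PCDHA13 loop. Its corner scores were low, above those of 36.9% and 17.1% of the domains of the same library. This pattern was found for 1 of the 5 distinct domains of the window, against a background of 17.9% of 3968, so its presence does not set the window apart. It is the same stretch in which the donut-expected count of the PCDHA13 loop was higher with THZ1, and whether one bears on the other was not tested.

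Over gamma, a domain started at 140740001 in 3 libraries. Its end lay at 140930000 for vehicle replicate 2 (corner score 1.18), 140940000 for THZ1 replicate 1 (1.15) and 140920000 for THZ1 replicate 2 (1.29). It held the starts of 16 of the 22 gamma genes, from PCDHGA5 to PCDHGC5, and its ends fell between or at the DIAPH1 anchors of the gamma loops. Vehicle replicate 1 had no domain there, although it had 5 loops between gamma and the region downstream. No domain of the window was called in all 4 libraries.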

How the data were processed

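The authors made Arima-HiC libraries of MDA-MB-231 cells and processed the reads with Juicer 1.6 (hg19 in the submitters' processing notes). The deposited lists name juicer_tools 1.19.02. In the deposited loop lists, observed values are raw counts of contacts, expected values are a signal on the same scale from 4 neighborhoods, and the authors' FDR values are q-values. In the deposited domain lists the value used is Arrowhead's corner score. The authors' tables of condition-specific loops hold their own comparison and were not used.

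Coordinates are GRCh37, with genes from GENCODE 44 lifted to it. Loop size was the distance between anchor starts. Strength was tested with edgeR 4.0.16 in R 4.3.3, with DESeq2 1.42.0 as an alternative. Other values were computed with Python 3.11.15, pandas 2.3.3 and scipy 1.17.1, and libraries were compared by exact permutation. The strength test was tried on simulated counts, and the matching of loops on shifted copies of called loops. At the loops tested for strength, counts differed between duplicates by less than sampling noise in both conditions (chi-square per degree of freedom 0.819 and 0.813), while their loop lists differed. A loop had to be called in every library to enter, so these values do not describe loops called in only some libraries.

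The members, gene lists and tests were chosen with earlier results of these data known. Named were the first, last and C-type genes of the clusters, genes at anchors of loops called in at least 3 libraries, up to 5 members per cluster with the most loops at their start, loops called in all 4 libraries or in both libraries of 1 condition only, the smallest and largest loop, and domains called in at least 2 libraries. Loops called in 1 library and PCDHGC3 are named beyond this where a count turns on them, after their values were seen. Not every flank gene at an anchor of a loop called in at least 3 libraries is named.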

Additional observations from a re-analysis of the deposited data

How the results depend on the processing

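Depth and the number of libraries limit these results, since each value per library rests on 2 against 2, and expected counts of a few contacts carry an error the lists do not give. Values are THZ1 minus vehicle. The difference in loop number, -3.50, turned to 2.50 with 10 kb anchors only. That in median size, -5.0 kb, turned to 5.0 kb with 5 kb anchors and 12.5 kb with 10 kb anchors. That in the share of loops of at most 90 kb, 1.97 percentage points, turned to -4.44 over the span of the genes alone and -4.17 with 10 kb anchors, and that in loops within the clusters, -0.50, turned to 0.50 with 5 kb anchors. None of these was past a threshold. Without 1 library at a time, the differences ranged from -7.00 to 0.00 for loop number. Of 2 loops called lower in strength in the window, 0 were called with the horizontal expectation or with TMM and no expectation, 1 with the vertical expectation, 1 when matched within 20 kb, and 0 to 0 without 1 library at a time (0 to 227 calls over the genome). The signs of the PCDHB13 and PCDHGB2 loops turned to 0.37 and 0.27 with TMM and no expectation. The replicate block left 2 calls in the window (770 against 721 over the genome). The deviations of same-numbered libraries correlated at 0.0175. Duplicates differed by no more than sampling noise at these loops, so this value cannot show whether same-numbered libraries were prepared together. DESeq2 gave no adjusted p for the 5 loops (unadjusted p from 0.0341 to 0.269). Over the genome, 48 loops were called with the horizontal, 67 with the vertical and 176 with no expectation, and 56 by DESeq2. Alternatives added after seeing the data kept 2 calls (loops with a bottom-left expectation of 0 kept, bias-adjusted quasi-likelihood) or gave 3, the PCDHB13 loop included (Poisson test, adjusted p = 0.0444). The number of loops called in all 4 libraries, 13, stayed within 1.5 times under both other matching distances.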
